A study of Danio rerio with 6 samples.

Results

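The genes described here are 38 genes of DNA replication and mitosis, chosen by their symbols as a list of proliferation genes. All 38 were found among the 30954 named genes of the count table, and 37 passed the filter on low counts that left 12889 genes for testing. The exception was birc5a, with 6 to 34 reads per library. The data are RNA-seq read counts from zebrafish liver, with 3 libraries from scd knockout fish (mutant) and 3 from wild-type fish (WT). The knockout was made with CRISPR-Cas9. The scd gene encodes stearoyl-CoA desaturase, which makes monounsaturated fatty acyl-CoA, and both groups were kept in water of constant temperature. The sources used here give no edited allele, sex, age, strain or number of fish per library, so the p-values measure only the spread between these libraries, which may be technical in part. The comparison asks how transcript levels in the liver differ between scd mutants and WT fish.

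A dividing cell licenses its replication origins by loading the MCM helicase with the help of cdc6 and cdt1, and fires them with cdc45 and the GINS complex. It then copies its DNA with polymerases held by the pcna clamp. Entry into mitosis is driven by cdk1 bound to A- and B-type cyclins, and exit by cdc20, which directs the destruction of those cyclins. Most hepatocytes of an adult liver rest outside the cycle, so these transcripts are usually scarce there. Fish oocytes, which are arrested in meiosis, store maternal transcripts of cyclins and mitotic kinases for maturation and for the first cleavages. These roles are known mainly from yeast, frog and human cells.

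About 22525300 to 25853000 counts per library fell on named genes, and the 38 genes together took 2740, 3481 and 17350 of them in mutant replicates 1 to 3, against 2831, 2942 and 3050 in WT replicates 1 to 3. Levels are counts per 1e+06 reads (CPM), scaled with edgeR's TMM factors unless stated. The TMM factor was 0.632, 1.07 and 2.95 in mutant replicates 1 to 3, against 0.926, 0.755 and 0.718 in WT replicates 1 to 3. Mutant replicate 3 stood apart, with vitellogenin at 0.0433% of counts, against 44.1% to 57.3% in the other 5 libraries, so its values in CPM rest on a large scaling factor. The scd level was 691, 110 and 56.6 CPM in mutant replicates 1 to 3, against 30.3, 18.1 and 430 CPM in WT replicates 1 to 3, so the genotypes overlapped and the transcript does not check the labels. The 38 oocyte and gonad markers in the table summed to 442, 2.22 and 2.08 CPM in mutant replicates 1 to 3, against 270.0, 320.4 and 6.12 CPM in WT replicates 1 to 3. Of these 38, 32 were higher in each of mutant replicate 1 and WT replicates 1 and 2 than in any other library, and sycp1, sycp3, gsdf, amh, foxl2a and cyp19a1a were not. Of the gonadal somatic cell genes among these, gsdf had 6, 7 and 1 reads in mutant replicates 1 to 3, against 7, 28 and 39 in WT replicates 1 to 3, amh had 0 to 6 per library, and foxl2a and cyp19a1a had none. Mutant replicate 1 and WT replicates 1 and 2 are called the libraries with oocyte transcripts below. The 16 hepatocyte markers, all above the filter, summed to between 45133 and 104294 CPM in all 6 libraries.

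**Figure D1:**
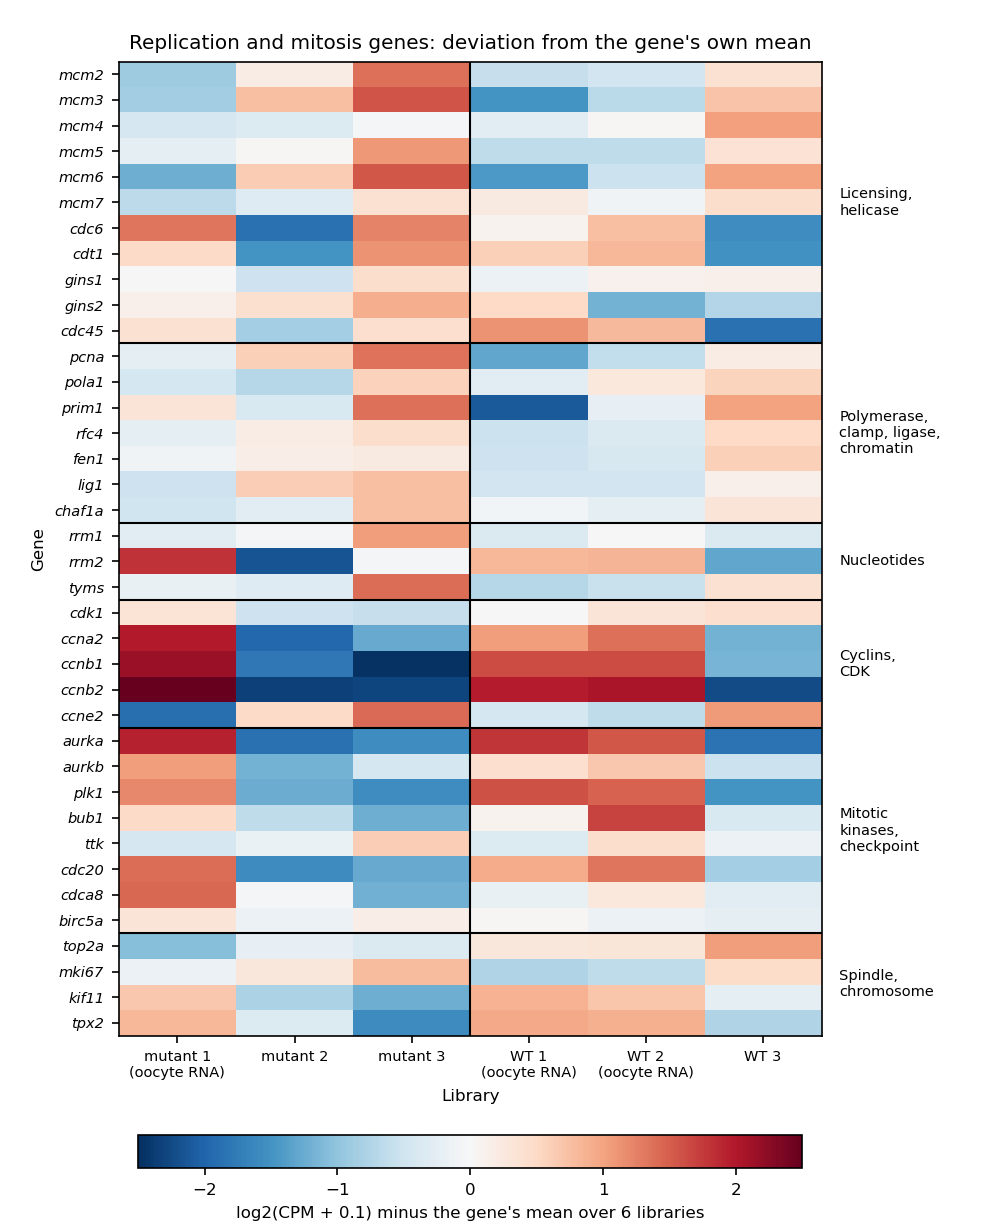
The colour gives log2(CPM + 0.1) of each of the 38 genes minus that gene's mean over the 6 libraries, with mutant libraries left of WT ones and genes grouped by role. The cyclins ccna2, ccnb1 and ccnb2 and the kinases aurka and plk1 are red in mutant 1, WT 1 and WT 2 and blue in the other 3 libraries, while most MCM genes and pcna are red in mutant 3.

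No gene of the set passed the test between scd mutant and WT livers. Of the 37 tested, 0 were called higher and 0 lower at an adjusted p under 0.05 (edgeR quasi-likelihood test, Benjamini-Hochberg over all genes), where 31 of 12889 genes, 0.241%, were called (0.116% higher and 0.124% lower). The DESeq2 Wald test also called 0 of the 37, though it gave no adjusted p for 2 of them, where it called 1082 of 12889 genes. By limma-voom 0 of the 37 were called, where 28 of 12889 genes were. At an unadjusted p under 0.05, edgeR held 1 of the 37, top2a, where 19.1% of all genes passed. Only for top2a did the CPM of the 3 mutant and the 3 WT libraries not overlap, where 27.8% of all genes tested did not overlap (12.8% with the mutant lower). The absence of calls does not show that the levels were equal, since standard errors on the log2 scale ran from 0.34 for mcm7 to 1.76 for ccnb2.

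The 22 replication genes and the 15 tested mitotic genes had medians of opposite sign, with no call in either. Cyclin E2, which drives entry into S phase, was counted with the replication genes. The median log2 fold change, mutant over WT, was 0.50 over the replication genes, of which 18 were positive, and -0.49 over the mitotic genes, of which 12 were negative. Over all 37 it was 0.10, beside 0.04 over all genes tested. Of all 12889 genes tested, 6694 were positive and 6195 negative. Both medians changed when single libraries were left out and when the summed oocyte markers were a covariate. That covariate mainly separates the libraries with oocyte transcripts from the others, so it takes up any other difference between them. With the summed oocyte markers as a covariate they were 0.19 for replication and 0.02 for mitotic genes, and with that covariate and without mutant replicate 3 they were -0.06 and 0.08. Without mutant replicate 3 the replication median was -0.06, and without mutant replicate 1 the mitotic median was -1.63.

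**Figure D2:**
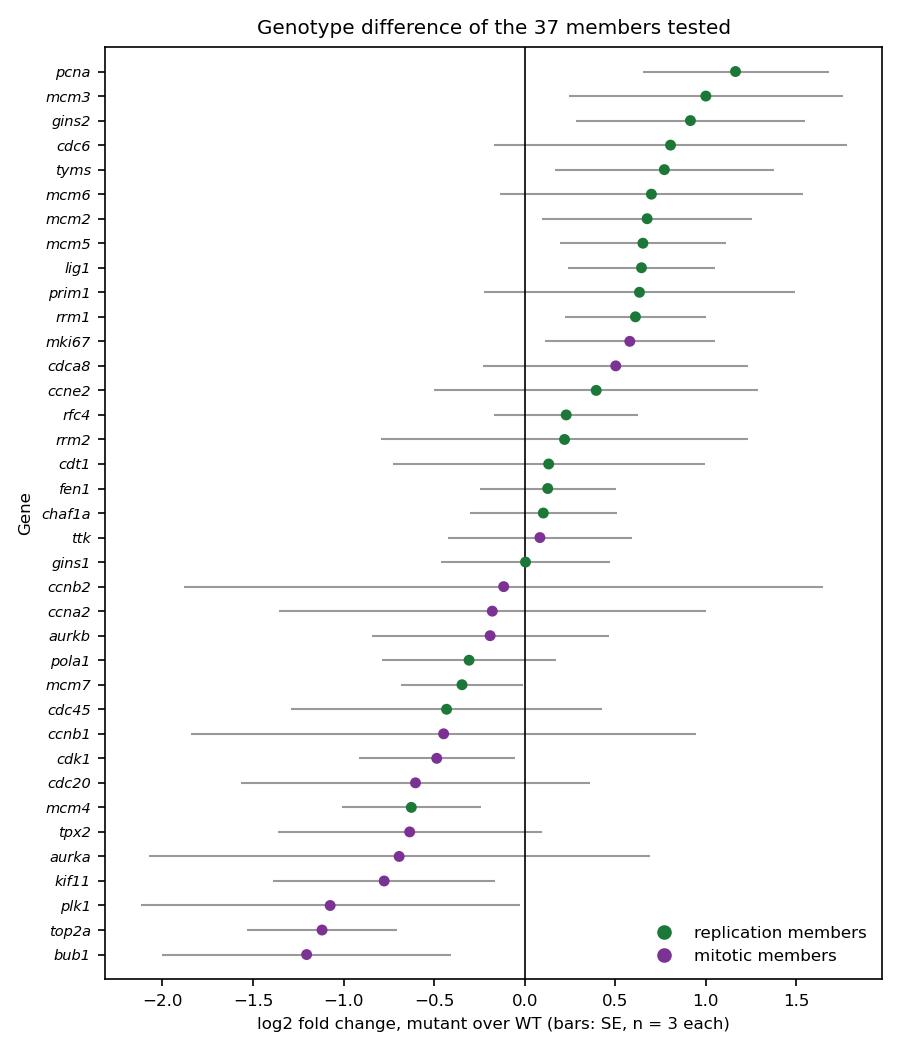
Points give the log2 fold change, mutant over WT, of the 37 genes tested and bars its standard error (n = 3 libraries each), with replication genes in green and mitotic genes in purple. Most green points lie right of 0 and most purple points left of it, from pcna at 1.16 to bub1 at -1.20, and the widest bars belong to ccnb2, ccnb1 and aurka.

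Among the licensing and helicase genes, levels of most MCM subunits were high in mutant replicate 3 and low in the libraries with oocyte transcripts. The helicase subunit mcm2 stood at 5.02, 10.7 and 24.5 CPM in mutant replicates 1 to 3, against 6.23, 6.75 and 12.3 CPM in WT replicates 1 to 3. The subunit mcm6 stood at 2.57, 9.49 and 18.1 CPM in mutant libraries, against 2.2, 4.18 and 12.3 CPM in WT ones. Each lay lowest in the 3 libraries with oocyte transcripts, and the genotypes overlapped. The subunit mcm5 had 6.79, 8.09 and 17.0 CPM in mutant libraries, against 5.03, 5.07 and 10.2 CPM in WT ones. For mcm3 the values were 3.36, 10.6 and 18.6 CPM in mutant libraries, against 2.16, 3.87 and 10.3 CPM in WT ones, which is 1.0 ± 0.76 on the log2 scale, mutant over WT (SE, edgeR adjusted p = 0.503). Like mcm2, both mcm3 and mcm5 lay lowest in the 3 libraries with oocyte transcripts. The other helicase subunits stood lower in mutant libraries on average. The level of mcm4 was 7.34, 7.76 and 9.67 CPM in mutant libraries, against 8.05, 10.04 and 20.2 CPM in WT ones. That of mcm7 was 6.36, 8.05 and 13.1 CPM in mutant libraries, against 11.8, 9.47 and 13.7 CPM in WT ones. Both were highest in WT replicate 3, with log2 fold changes of -0.63 ± 0.39 for mcm4 and -0.35 ± 0.34 for mcm7 (SE, n = 3 each, adjusted p = 0.412 and 0.601 by edgeR).

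The loading factors did not follow the helicase they load. The level of cdc6 was 2.32, 0.164 and 2.16 CPM in mutant replicates 1 to 3, against 0.911, 1.52 and 0.224 CPM in WT replicates 1 to 3. Its partner cdt1 had 1.41, 0.288 and 2.26 CPM in mutant libraries, against 1.53, 1.83 and 0.281 CPM in WT ones. Both were low in mutant replicate 2 and WT replicate 3, with 4 to 7 reads each, and higher in mutant replicate 3 and in the libraries with oocyte transcripts. The helicase activator cdc45 had 0.917, 0.329 and 0.940 CPM in mutant libraries, against 1.58, 1.26 and 0.112 CPM in WT ones. It too was lowest in mutant replicate 2 and WT replicate 3. The GINS subunit gins2 had 0.795, 0.986 and 1.44 CPM in mutant libraries, against 1.05, 0.261 and 0.393 CPM in WT ones. Its difference, mutant over WT, was 0.92 ± 0.63 on the log2 scale (SE, edgeR adjusted p = 0.458), from 5 to 101 reads per library. The other GINS subunit, gins1, ranged from 0.575 to 1.21 CPM in mutant libraries and from 0.767 to 0.954 CPM in WT ones.

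Of the genes that copy and join DNA, the sliding clamp gene pcna had the highest positive log2 fold change of the set. It stood at 18.8, 33.6 and 57.0 CPM in mutant replicates 1 to 3, against 9.01, 14.5 and 25.4 CPM in WT replicates 1 to 3. The groups overlapped, because mutant replicate 1 lay under WT replicate 3. Within each genotype the libraries with oocyte transcripts were the lowest. The log2 fold change was 1.16 ± 0.51 (SE, n = 3 each, unadjusted p = 0.0559, adjusted p = 0.273 by edgeR). Scaled by total counts it was 2.52, with 0.97 as the median over all genes, and pcna was called higher (edgeR adjusted p = 0.0229). With that scaling 397 of 12889 genes were called higher. Without mutant replicate 3 the log2 fold change of pcna was 0.67 under TMM (edgeR adjusted p = 0.515).

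The remaining replication fork genes differed less between the genotypes. The ligase gene lig1, which seals Okazaki fragments, had 3.91, 8.75 and 9.59 CPM in mutant libraries, against 4.03, 4.03 and 6.23 CPM in WT ones. The flap nuclease gene fen1 had 4.28, 5.18 and 5.40 CPM in mutant libraries, against 3.16, 3.45 and 7.01 CPM in WT ones. The clamp loader gene rfc4 ranged from 2.69 to 4.34 CPM in mutant libraries and from 2.16 to 4.54 CPM in WT ones. All 3 lay lower in every library with oocyte transcripts than in any other. The histone chaperone gene chaf1a had 3.18, 3.74 and 7.70 CPM in mutant libraries, against 4.27, 3.77 and 5.67 CPM in WT ones. The polymerase alpha gene pola1 ranged from 1.19 to 3.06 CPM in mutant libraries and from 1.68 to 3.03 CPM in WT ones. The primase gene prim1 had 1.47, 0.863 and 3.16 CPM in mutant libraries, against 0.192, 0.994 and 2.41 CPM in WT ones. For these 6 genes the log2 fold changes ran from -0.31 for pola1 to 0.64 for lig1, with adjusted p from 0.418 to 0.913 (edgeR).

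The nucleotide supply genes split. The large subunit gene of ribonucleotide reductase, rrm1, had 8.07, 9.45 and 20.001 CPM in mutant replicates 1 to 3, against 7.48, 9.62 and 7.52 CPM in WT replicates 1 to 3. Mutant replicate 3 was the highest and the other 5 libraries lay close together. The small subunit gene rrm2 had 12.3, 0.698 and 3.303 CPM in mutant libraries, against 6.23, 6.28 and 1.35 CPM in WT ones, so it was higher in each library with oocyte transcripts than in any other. No other replication gene of the set had that order. With total counts rrm2 lost it, since mutant replicate 3 was then the highest library, at 9.75 CPM. Thymidylate synthase, tyms, had 1.77, 1.60 and 5.48 CPM in mutant libraries, against 1.20, 1.36 and 2.69 CPM in WT ones, which is 0.77 ± 0.60 on the log2 scale, mutant over WT (SE, edgeR adjusted p = 0.514).

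The A- and B-type cyclins were high in the libraries with oocyte transcripts of both genotypes and under 2 CPM in the others. Cyclin B1, the partner of cdk1 at entry into mitosis, stood at 16.6, 0.986 and 0.569 CPM in mutant replicates 1 to 3, against 11.5, 11.4 and 1.57 CPM in WT replicates 1 to 3 (ccnb1). Cyclin B2 stood at 11.1, 0.205 and 0.214 CPM in mutant libraries, against 5.85, 6.17 and 0.224 CPM in WT ones (ccnb2). In reads, ccnb2 had 182, 5 and 15 in mutant libraries, against 122, 118 and 4 in WT ones. Cyclin A2, which acts in S phase and before mitosis, stood at 7.77, 0.411 and 0.740 CPM in mutant libraries, against 4.03, 5.07 and 0.785 CPM in WT ones (ccna2). The genotypes overlapped widely in all 3, with log2 fold changes of -0.45 ± 1.39, -0.12 ± 1.76 and -0.18 ± 1.18 for ccnb1, ccnb2 and ccna2 (SE, n = 3 each, edgeR, adjusted p from 0.887 to 0.978).

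Their kinase and the S phase cyclin E2 did not share that order. The level of cdk1 was 2.02, 1.07 and 1.02 CPM in mutant replicates 1 to 3, against 1.58, 1.99 and 2.13 CPM in WT replicates 1 to 3, where the highest value was that of WT replicate 3, which lacked oocyte transcripts. Cyclin E2 had 0.183, 1.36 and 2.705 CPM in mutant libraries, against 0.671, 0.575 and 2.08 CPM in WT ones (ccne2). It was lower in every library with oocyte transcripts than in any other, the reverse of the A- and B-type cyclins. In bulk RNA, fewer cells of a type and less RNA per cell cannot be told apart.

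**Figure D3:**
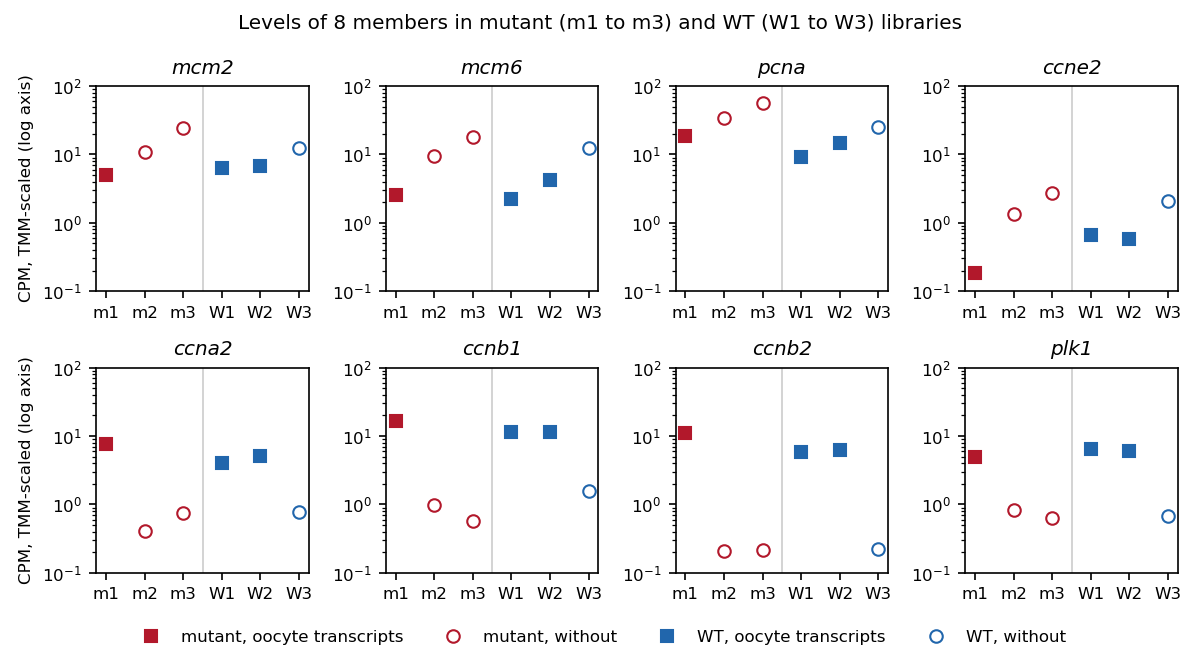
Each panel shows CPM on a log axis for 1 gene in mutant libraries (m1 to m3, red) and WT libraries (W1 to W3, blue), with filled squares for libraries with oocyte transcripts and open circles for those without. For mcm2, mcm6, pcna and ccne2 the squares lie under the circles of the same genotype, and for ccna2, ccnb1, ccnb2 and plk1 they lie above them in both genotypes.

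The mitotic kinases followed the B-type cyclins. The spindle pole kinase gene aurka had 3.55, 0.164 and 0.228 CPM in mutant replicates 1 to 3, against 3.21, 2.72 and 0.168 CPM in WT replicates 1 to 3. The polo kinase gene plk1, which acts from centrosome maturation to cytokinesis, had 4.89, 0.821 and 0.641 CPM in mutant libraries, against 6.42, 5.96 and 0.673 CPM in WT ones. Both were higher in the libraries with oocyte transcripts, of either genotype, than in the others. The log2 fold changes were -0.69 ± 1.38 for aurka and -1.07 ± 1.05 for plk1 (SE, n = 3 each, adjusted p = 0.819 and 0.605 by edgeR). The kinase of the chromosomal passenger complex, aurkb, had 4.4, 0.863 and 1.51 CPM in mutant libraries, against 2.83, 3.40 and 1.40 CPM in WT ones. It too was higher in each library with oocyte transcripts than in any other, over a narrower range than aurka. With total counts aurkb was highest in mutant replicate 3, at 4.46 CPM.

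The checkpoint and anaphase genes were mixed. The activator of the anaphase-promoting complex, cdc20, had 5.2, 0.575 and 0.740 CPM in mutant replicates 1 to 3, against 3.69, 4.97 and 1.01 CPM in WT replicates 1 to 3, higher in each library with oocyte transcripts. The spindle checkpoint kinase gene bub1 had 1.1, 0.452 and 0.270 CPM in mutant libraries, against 0.815, 2.67 and 0.561 CPM in WT ones, from 10 to 51 reads. It had the most negative difference of the set, -1.20 ± 0.80 on the log2 scale (SE, edgeR adjusted p = 0.441), and WT replicate 2 alone stood above mutant replicate 1. The other checkpoint kinase gene, ttk, had 0.673, 0.821 and 1.49 CPM in mutant libraries, against 0.719, 1.31 and 0.842 CPM in WT ones, with no order by oocyte transcripts. The passenger complex gene cdca8 had 3.18, 1.07 and 0.427 CPM in mutant libraries, against 0.958, 1.36 and 0.898 CPM in WT ones. Its high value was that of mutant replicate 1 alone. Survivin, encoded by birc5a, was untested and ranged from 0.370 to 0.550 CPM in mutant libraries and from 0.337 to 0.431 CPM in WT ones.

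Among spindle and chromosome genes, top2a was the gene with the smallest p of the set. Topoisomerase II alpha untangles sister chromatids, and its gene had 1.04, 1.97 and 1.75 CPM in mutant replicates 1 to 3, against 2.78, 2.82 and 4.82 CPM in WT replicates 1 to 3. Every mutant library lay under every WT library. The group means were 1.59 ± 0.487 CPM in mutant and 3.48 ± 1.17 CPM in WT libraries (SD, n = 3 each). This was -1.12 ± 0.42 on the log2 scale, mutant over WT (SE, unadjusted p = 0.0294, adjusted p = 0.214 by edgeR). Scaled by total counts the log2 fold change was -0.04, where the median of all genes was 0.97. The reads behind it numbered 17, 48 and 123 in mutant libraries, against 58, 54 and 86 in WT ones.

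The proliferation marker mki67 had 2.45, 3.33 and 4.81 CPM in mutant replicates 1 to 3, against 1.58, 1.73 and 3.82 CPM in WT replicates 1 to 3. Alone among the mitotic genes tested, it lay lower in each library with oocyte transcripts than in any other, as pcna did. The spindle motor gene kif11 had 3.36, 1.15 and 0.826 CPM in mutant libraries, against 3.83, 3.40 and 1.74 CPM in WT ones. The spindle assembly gene tpx2, whose product activates the aurka kinase, had 3.73, 1.60 and 0.626 CPM in mutant libraries, against 4.03, 3.87 and 1.18 CPM in WT ones. Both were higher in each library with oocyte transcripts, though for kif11 not with total counts. The log2 fold changes of mki67, kif11 and tpx2 were 0.58 ± 0.47, -0.78 ± 0.61 and -0.63 ± 0.73 (SE, adjusted p from 0.518 to 0.667 by edgeR).

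Counted over the set, 11 genes were higher in each of the 3 libraries with oocyte transcripts than in any of the other 3, where 9.34% of all genes tested had that order. They were ccna2, ccnb1, ccnb2, aurka, aurkb, plk1, bub1, cdc20, kif11, tpx2 and rrm2, so 10 were mitotic genes. Another 10 genes were lower in each library with oocyte transcripts, where 7.38% of all genes were. These were mcm2, mcm3, mcm5, mcm6, pcna, rfc4, fen1, lig1, ccne2 and mki67, so 9 were replication genes. Scaled by total counts, the first order held for 7 genes (2.67% of all genes) and the second for 13 (11.7%). The genes that lost the first order were rrm2, aurkb, bub1 and kif11. The untested birc5a had neither order. These orders describe 6 libraries whose division by oocyte transcripts was seen in the same counts, and no test was made of them. The part of oocyte RNA in the levels of these genes was not tested.

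The split of reads between mitotic and replication genes within a library needs no scaling. The 16 mitotic genes took 42.8% of the reads of the 38 genes in mutant replicate 1 (95% exact binomial interval 40.9% to 44.7%), 11.1% in mutant replicate 2 (10.1% to 12.2%) and 6.62% in mutant replicate 3 (6.26% to 7.00%). In WT replicates 1, 2 and 3 the share was 40.0% (38.2% to 41.8%), 38.5% (36.7% to 40.3%) and 13.0% (11.8% to 14.2%). The intervals cover counting error only. The share depends on both parts. Mitotic reads numbered 1172, 386 and 1149 in mutant replicates 1 to 3, against 1132, 1132 and 395 in WT replicates 1 to 3. Replication reads numbered 1568, 3095 and 16201 in mutant libraries, against 1699, 1810 and 2655 in WT ones. In raw reads, the low share of mutant replicate 3 came with as many mitotic reads as in the libraries with oocyte transcripts and far more replication reads. Under TMM its mitotic genes summed to 16.4 CPM, against 54.3 to 71.7 CPM in those libraries. The share cannot tell these readings apart and is not taken as separate support for a division by oocyte transcripts. Each share was 38.5% or more where oocyte transcripts were present and at or under 13.0% where they were not, in both genotypes. The mutant libraries without them lay under the WT one, with intervals for mutant replicate 2 and WT replicate 3 that overlapped.

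**Figure D4:**
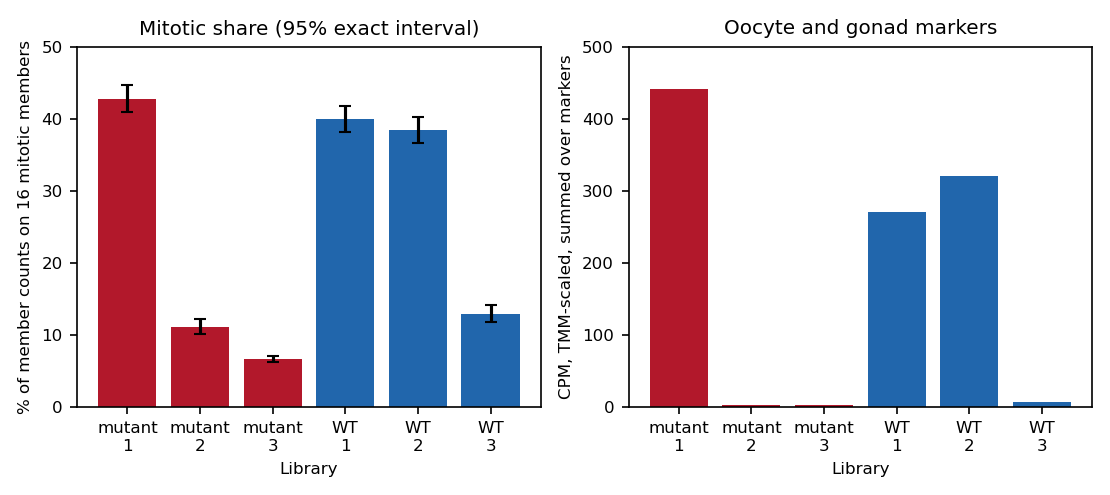
Left, bars give the percentage of the reads of the 38 genes that fell on the 16 mitotic genes in each library, with 95% exact binomial intervals, and right, the summed CPM of the oocyte and gonad markers. Mutant 1, WT 1 and WT 2 have shares of 42.8%, 40.0% and 38.5% and the high marker sums of 442, 270.0 and 320.4 CPM.

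Ratios of reads between partner genes within a library restate this contrast, since the levels of these genes are given above. Reads of rrm2 per read of rrm1 numbered 1.52, 0.0739 and 0.165 in mutant replicates 1 to 3, against 0.833, 0.652 and 0.179 in WT replicates 1 to 3. Reads of aurka per read of aurkb numbered 0.806, 0.190 and 0.151 in mutant libraries, against 1.14, 0.800 and 0.120 in WT ones. The values 0.190 and 0.120 rest on 4 and 3 reads of aurka, beside 21 and 25 of aurkb. In both pairs the first partner was higher relative to the other in the libraries with oocyte transcripts. Reads of ccne2 per read of ccna2 ran the other way, at 0.0236, 3.3 and 3.65 in mutant libraries, against 0.167, 0.113 and 2.64 in WT ones. The value 0.0236 rests on 3 reads of ccne2. The opposite orders of ccne2 and ccna2 fixed the order of their ratio in advance. Gene lengths were not used, so a ratio is read across libraries and not as the relative abundance of the partners.

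Most replication genes had their highest level in mutant replicate 3. Under TMM it was the highest library for 17 of the 37 genes, 15 of them replication genes, where it was the highest for 25.8% of all genes. With total counts it was the highest for 27 of the 37, where it was so for 82.2% of all genes. The summed level of the 11 licensing and helicase genes was 37.7, 57.0 and 108.9 CPM in mutant replicates 1 to 3, against 41.4, 45.2 and 81.0 CPM in WT replicates 1 to 3. The 16 mitotic genes summed to 16.4 CPM in mutant replicate 3, against 15.9 CPM in mutant replicate 2 and 22.2 CPM in WT replicate 3, so under TMM they were not high there. With total counts the order turned, at 48.3 CPM in mutant replicate 3, against 16.9 CPM in mutant replicate 2 and 15.9 CPM in WT replicate 3, and mutant replicate 3 was level with the libraries with oocyte transcripts, at 44.7 to 50.3 CPM. Erythrocyte markers moved with mutant replicate 3. The 21 markers summed to 2475 CPM there, against 243.7 to 415 CPM in the other 5 libraries, and 11 of the 13 that passed the filter were highest there. The erythroid regulator gata1a was at 6.14 CPM in mutant replicate 3 and between 0.183 and 0.471 CPM elsewhere. Of the embryonic globin genes, hbbe2 had 30 reads and hbae5 had 12 in mutant replicate 3, against 0 to 2 elsewhere, and hbae1.1, hbae1.3 and hbbe1.1 had none in any library. Lymphocyte markers were sparse, at 3.79 CPM summed over 11 genes in mutant replicate 3 and 5.39 CPM in WT replicate 3, and none passed the filter. The part of erythroid cells in the replication gene levels was not tested.

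Compared within libraries alike in oocyte transcripts, genotype differences had opposite signs for 19 of the 38 genes, and they have no test. Between mutant replicate 1 and WT replicates 1 and 2, the median log2 difference of the 38 genes was 0.20, and between mutant replicates 2 and 3 and WT replicate 3 it was -0.08. These comparisons share no library. Mutant replicates 2 and 3 were averaged, though vitellogenin was 57.3% of counts in replicate 2 and 0.0433% in replicate 3. Taken singly against WT replicate 3, they gave -0.20 and 0.99 for mcm2 and 0.40 and 1.16 for pcna. For top2a they gave -1.26 and -1.43. In both, 10 genes were positive and 9 negative. Of all genes tested, 65.6% had the same sign in both. Only top2a passed a difference of 1 in the same direction in both, at -1.37 and -1.34, where 9.70% of all genes did. The clamp gene pcna had 0.72 and 0.78. The cyclins ccnb1 and ccna2 had 0.54 and 0.77 where oocyte transcripts were present and -1.0 and -0.45 where they were absent.

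**Figure D5:**
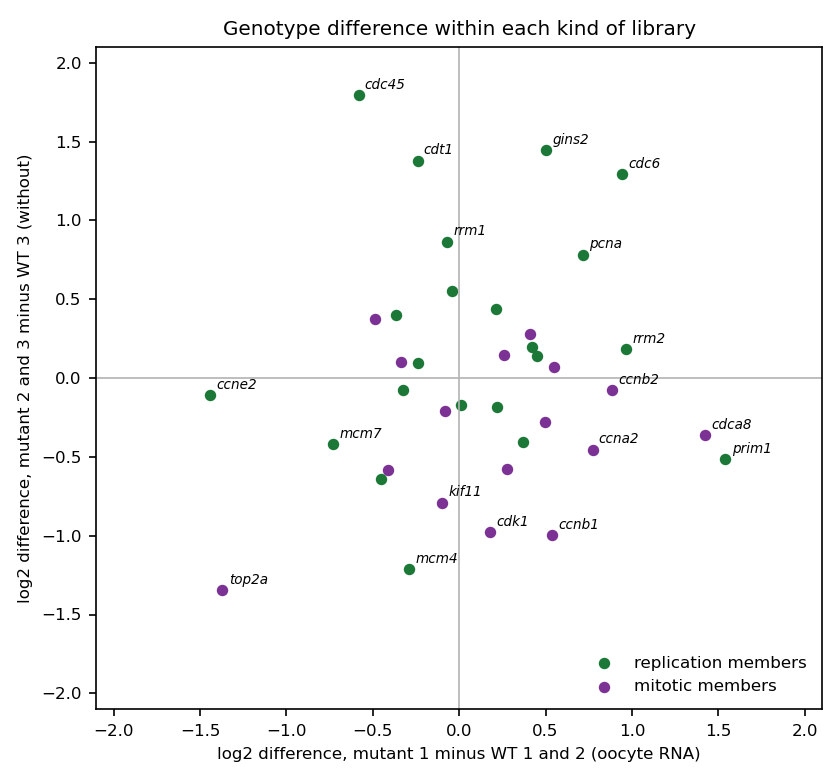
Each point is 1 of the 38 genes, with the log2 difference between mutant replicate 1 and WT replicates 1 and 2 across, and that between mutant replicates 2 and 3 and WT replicate 3 up the page. Points lie on both sides of 0 on each axis, top2a lies at -1.37 and -1.34, and pcna at 0.72 and 0.78.

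Other genes of the same machinery were tested in the same fit. Of 38 further replication factors that passed the filter, 0 were called in either direction, where 0.241% of all genes were. At an unadjusted p under 0.05, 5 of them passed, all higher, where 19.1% of all genes passed (edgeR). Their median log2 fold change was 0.26, and 26 were positive, where 6694 of all 12889 genes tested were. In each library with oocyte transcripts 7 lay lower and 0 higher, where 7.38% and 9.34% of all genes did. The single-strand binding subunit rpa1 had 8.38, 12.1 and 19.9 CPM in mutant replicates 1 to 3, against 6.71, 9.31 and 15.4 CPM in WT replicates 1 to 3. Like pcna, it lay lower in each library with oocyte transcripts than in any other. Of 44 further mitosis genes, 0 were called, beside the same 0.241% of all genes. At an unadjusted p under 0.05, 4 of the 44 passed, all lower, beside the same 19.1% of all genes (edgeR). Their median was -0.64, and 37 were negative, where 6195 of all 12889 genes tested were. In each library with oocyte transcripts 21 lay higher and 1 lower, beside the same 9.34% and 7.38% of all genes. The mitotic brake wee1, a kinase that inhibits cdk1, had 5.02, 5.30 and 6.35 CPM in mutant libraries, against 8.58, 9.41 and 14.1 CPM in WT ones (log2 fold change -0.94 ± 0.29, adjusted p = 0.165). Its groups did not overlap, with the mutant lower, as for 12.8% of all genes tested.

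Among 22 G1 cyclins, kinases and E2F, RB and DREAM regulators that passed, 0 were called, where 0.241% of all genes were. At an unadjusted p under 0.05, 4 were higher and 1 was lower, where 19.1% of all genes passed (edgeR). The growth regulator mycb had 13.4, 6.37 and 5.85 CPM in mutant replicates 1 to 3, against 28.5, 107.5 and 103.9 CPM in WT replicates 1 to 3 (log2 fold change -3.23 ± 0.61, adjusted p = 0.0759). Every mutant library lay under every WT library, as for 12.8% of all genes tested. Of 19 arrest and p53 genes, 0 were called, beside the same 0.241% of all genes. At an unadjusted p under 0.05 there were 5 on each side, where 19.1% of all genes passed (edgeR). The p53 target ccng1 had 369, 344 and 549 CPM in mutant libraries, against 236, 298 and 245 CPM in WT ones (log2 fold change 0.70 ± 0.37, adjusted p = 0.345). The inhibitor gene cdkn1bb, named after its values were seen, had 7.10, 2.75 and 4.24 CPM in mutant libraries, against 17.3, 29.1 and 32.0 CPM in WT ones (log2 fold change -2.48 ± 0.43, adjusted p = 0.0683). Related inhibitor genes went both ways. Their log2 fold changes were 2.90 ± 1.11 for cdkn1a, 1.01 ± 0.42 for cdkn1ba and -1.42 ± 0.75 for cdkn1d (SE, adjusted p from 0.229 to 0.349 by edgeR).

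Of 8 meiotic cell cycle genes of the oocyte in the table, 5 were higher in each library with oocyte transcripts than in any other, like the B-type cyclins. These were mos, ccna1, cpeb1b, wee2 and fbxo43, and they are the same 5 that passed the filter, with at most 5 reads in most other libraries. The other 3, ccnb3, cdc25d and bub1bb, had 0 to 21 reads per library and lacked that order. For wee2 the order rests on the TMM scaling, since mutant replicate 3 had 51 reads, against 50 and 52 in WT replicates 1 and 2. Cyclin A1, the germ line A-type cyclin, had 18.4, 0 and 0.0285 CPM in mutant replicates 1 to 3, against 5.37, 8.11 and 0.0561 CPM in WT replicates 1 to 3 (ccna1). No count was made in mutant replicate 2. None of the 5 was called between genotypes (edgeR, smallest adjusted p = 0.822), where 0.241% of all genes were. At an unadjusted p under 0.05, 0 passed, where 19.1% of all genes did.

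Of markers of other cells, 0 were called in 10 macrophage and neutrophil, 11 biliary and stellate, 8 endothelial and 14 exocrine pancreas genes (edgeR). Nor were any called in 16 hepatocyte, 13 erythrocyte and 7 vitellogenin genes, where 0.241% of all genes were called. At an unadjusted p under 0.05 these lists held, in that order, 0, 5, 0, 2, 1, 1 and 0, where 19.1% of all genes passed. Of the 5 biliary and stellate genes, 1 was higher and 4 were lower in mutant libraries. The 2 pancreas genes and the hepatocyte gene were lower, and the erythrocyte gene was higher. Biliary and stellate markers summed to 607, 710 and 2270 CPM in mutant replicates 1 to 3, against 652, 891 and 1149 CPM in WT replicates 1 to 3. In mutant replicate 3, krt8, anxa4 and krt18a.1 gave 1099, 650 and 444 CPM of that sum. Of the 11 markers, 7 were highest in that library. By contrast epcam, sox9b, col1a1a and col1a2, at 7.32, 3.90, 1.75 and 2.46 CPM there, lay under every WT library. Macrophage and neutrophil markers summed to 145.9, 107.1 and 281 CPM in mutant libraries, against 138.1, 215 and 538 CPM in WT ones. Most of the sum in WT replicate 3 came from cd74a, cd74b and cpa5, at 274, 162 and 54.3 CPM. In mutant replicate 3 these stood at 102, 38.5 and 67.1 CPM. The neutrophil genes mpx and lyz had 0 to 28 reads per library. Under TMM, mutant replicate 3 and WT replicate 3 were the highest libraries for the sums of both lists, as they were for summed levels of the replication genes. With total counts the replication genes summed to 135.5 CPM in mutant replicate 2, above the 107.0 CPM of WT replicate 3. The sum of the endothelial markers ranged from 41.0 to 57.5 CPM in mutant libraries and from 54.4 to 67.8 CPM in WT ones. That of the exocrine pancreas markers ranged from 428 to 665 CPM in mutant libraries and from 191.9 to 2652 CPM in WT ones. The part of these cells in the levels of the replication genes was not tested. The gene of each list with the highest mean log2 CPM (prior count of 2) is given by its range. The egg coat gene zp3b lay at 0.0285 to 31.3 CPM in mutant libraries and 0.898 to 30.9 CPM in WT ones. The adult beta globin gene hbba1 lay at 99.6 to 1217 CPM in mutant libraries and 85.9 to 227 CPM in WT ones. The MHC class II chaperone gene cd74a lay at 32.8 to 102 CPM in mutant libraries and 94.5 to 274 CPM in WT ones. The keratin gene krt8 lay at 252 to 1099 CPM in mutant libraries and 268 to 537 CPM in WT ones. The mutant range contained or overlapped the WT range for each of these. The VEGF receptor gene kdrl lay at 22.2 to 29.1 CPM in mutant libraries and 30.6 to 40.0 CPM in WT ones. These did not overlap, with the mutant lower, as for 12.8% of all genes tested. The trypsin gene prss59.1 lay at 91.6 to 160.5 CPM in mutant libraries and 17.4 to 442 CPM in WT ones. The transferrin gene tfa lay at 10433 to 25890.3 CPM in mutant libraries and 23205 to 28860.1 CPM in WT ones. The yolk precursor gene vtg1 lay at 40.4 to 603381 CPM in mutant libraries and 248359 to 404512 CPM in WT ones.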

How the data were processed

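Total RNA of zebrafish liver was sequenced, per the labels. The authors deposited raw whole-number read counts per gene, not normalized. Trimmomatic 0.36, STAR 2.7, featureCounts 1.5.2 and build GRCz11 are named in the submitters' processing notes. No source used here gives strand or multi-mapping settings, so reads of overlapping genes are uncertain. In the RefSeq annotation of another build, GRCz12tu, 37 of the 38 genes were found and 16 overlap another gene. The gene not found was rrm2. Among the genes lower in each library with oocyte transcripts, mcm2 overlaps 9 genes. Of the same genes mcm3, mcm6, pcna, rfc4, fen1, lig1 and mki67 also overlap another gene, and mcm5 and ccne2 do not. Among the genes higher in each of those libraries, only tpx2 does, with rrm2 unchecked because it was not found. The gene top2a overlaps another gene too. The part of overlapping genes in these levels was not tested. A row with no gene name, 0.568% to 1.02% of a library, was left out.

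Counts were tested with edgeR 4.0.16 in R 4.3.3 (filterByExpr, TMM, robust quasi-likelihood test, mutant against WT, Benjamini-Hochberg, 0.05). Standard errors were taken as the absolute log2 fold change over the root of its F statistic. Differences within libraries alike in oocyte transcripts are of mean log2 CPM with a prior count of 2. The fit was also run on simulated data, where a gene had the same mean level in all libraries apart from a set genotype difference. Those data had neither a division by oocyte transcripts nor a library set apart like mutant replicate 3. They cannot show how the fit handles either. Alternatives used other scalings, filters, DESeq2 1.42.0, limma 3.58.1 (voom), a replicate block, an oocyte covariate and fits without each library. Values in every library were given for the 4 genes of each role with the highest mean level and the 5 highest and 5 lowest log2 fold changes; those given beyond this rule were chosen after their values were seen. From each other list the gene with the highest mean log2 CPM was named. The genes and lists were chosen with earlier results of these data known.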

Additional observations from a re-analysis of the deposited data

How the results depend on the processing

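Under TMM, 31 genes were called between mutant and WT. The count was 472 with total counts, 211 without the filter, 1082 by DESeq2, 49 with the oocyte covariate, 101 with that covariate and without mutant replicate 3 (chosen after seeing the data), and between 2 and 77 without each library in turn. Of the set, 1 gene, pcna, was called higher with total counts, where 397 of 12889 genes were. None was called under the other 16 alternatives tested. The median log2 fold change of the set was 1.16 with total counts, where that of all genes was 0.97. Of the 37 genes, 15 changed sign with the oocyte covariate, 16 with that covariate and without mutant replicate 3, 13 without mutant replicate 3 and 6 with total counts, none of them called in either fit. The order of higher levels in each library with oocyte transcripts held for 7 genes with total counts. Deviations of mutant and WT libraries of the same number correlated at 0.30, -0.21 and 0.32 for replicates 1 to 3. Mutant replicate 1 correlated best with WT replicate 2. The signs of all such correlations followed the division by oocyte transcripts, so they cannot show whether shared numbers pair the libraries. With the replicate block, 2 genes were called, none in the set. Depth limits genes such as ccnb2, with 4 to 15 reads in 3 libraries.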
